A study of Drosophila melanogaster with 4 samples.

Results

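The Drosophila gene mir-33 gives a microRNA from each side of its hairpin, miR-33-5p and miR-33-3p, and both were followed here in 4 small RNA libraries. The members are the rows of the deposited miRNA table named for mir-33, which are 2 of its 495 rows, 1 for each arm. The libraries were made from S2 cells, a line from Drosophila embryos, grown at 25 °C, in which CRISPR-Cas9 had removed Nibbler (Nbr), an exonuclease that trims the 3′ ends of miRNAs held by Argonaute. The nbrKO library came from these cells alone. The Nbr(wt), NbrCTD and NbrCTD-GWp libraries came from the same nbrKO cells stably transfected with the construct of that name under Act5C. The sample titles call this overexpression, and the levels of the constructs were not analysed here. What CTD and GWp stand for is not explained in the labels. Every group thus lacks the cells' own Nbr. With 1 library in each group, differences have no replicate check, and every interval covers counting error only. Cells with intact Nbr and nbrKO cells with an empty construct were not analysed here, and whether the line is 1 clone is not given in the sources used here.

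A miRNA hairpin is cut into a duplex, of which usually 1 strand, the guide, stays in Argonaute while the other, the passenger, is degraded. The guide finds its targets mainly through the seed, a short stretch near its 5′ end, and its 3′ end can be trimmed by exonucleases or lengthened by untemplated bases. The miR-33 family is conserved from insects to mammals and lies inside genes of the SREBP transcription factors, which switch on lipid synthesis; in mammals miR-33 represses cholesterol export and fatty acid oxidation.

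The 5′ ends decide the seeds, and the first 7 bases listed for each arm are shown because they identify which mature forms were counted. They were read as bases 1 to 7, since the letters listed for let-7 start at that miRNA's known first base. Capitals mark bases 2 to 7, the listed part of the seed.
miR-33-5p: gTGCATT
miR-33-3p: cAATACA
Bases 2 to 7 of either arm occurred in no other row of the 495, so neither arm shares that stretch with another listed miRNA. The table lists the 5′ end of miR-33-5p at 3L position 19791085 and that of miR-33-3p at 3L position 19791124, both on the + strand and 39 bases apart. The build behind these positions is not given in the sources used here and is not BDGP6 (dm6), in which only 113 of 487 rows fall inside the gene of the same name. In the BDGP6 annotation (Ensembl), mir-33 is a hairpin of 99 bases at chr3L:19797961-19798059 on the + strand, and its annotated mature RNAs span bases 26 to 46 and 65 to 86 of it. Their starts are also 39 bases apart. The hairpin lies within an intron of 226 bases, chr3L:19797907-19798132, in all 4 annotated transcripts of SREBP, on the same strand. It is intron 6 of SREBP-RA, SREBP-RB and SREBP-RD and intron 5 of SREBP-RC. SREBP is the fly's single gene for that transcription factor, which drives fatty acid synthesis.

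Depth was ample for both arms. The RPM values of the table, which the authors scaled to library depth, correspond to totals of 24005045 to 32488012 reads per library, of which miRNA rows held 54.7% to 65.0%. The mir-33 values were whole reads in every library, 419985 for both arms together in nbrKO, 377697 in Nbr(wt), 299275 in NbrCTD and 331986 in NbrCTD-GWp. Abundance below is in miRNA RPM, which takes the reads of 261 joined miRNA arms as the total. On that scale 6 miRNAs common in S2 cells summed to 621626 to 652448 miRNA RPM, while 14 measured of 19 listed markers of muscle, neurons, other stages, ovary and testis summed to 241 in nbrKO, 170.2 in Nbr(wt), 155 in NbrCTD and 142 in NbrCTD-GWp. Most of that sum in every library was the ovary marker miR-318-3p, at 142, 121, 100.3 and 88.9 miRNA RPM in the same order, and the early-embryo marker miR-6-3p came next, at 48.4, 22.5, 24.9 and 20.5. The muscle marker miR-1-3p stayed under 1 miRNA RPM in every library. On this scale that marker sum was highest in nbrKO, as was mir-33. The sum was not computed under other scalings, which shift levels against nbrKO and could change its order. Its part in the mir-33 values was not tested.

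miR-33-5p, the arm that carries the conserved seed, was among the most abundant miRNAs. It stood at 21365 miRNA RPM in nbrKO, 15853 in Nbr(wt), 16639.9 in NbrCTD and 15416.5 in NbrCTD-GWp. The level was highest in nbrKO, and the 4 intervals, of which that of nbrKO ran from 21284.5 to 21445, did not overlap. Its rank stayed nearly the same, 11th of 261 arms in nbrKO, Nbr(wt) and NbrCTD and 12th in NbrCTD-GWp. In nbrKO it stood between miR-276a-3p at 21569.5 and ban-5p, the passenger of bantam, at 20355.1, and neither neighbour's interval overlapped its own. Abundance was called lower or higher where log2(value + 1) differed by 2-fold or more and the intervals did not overlap. miR-33-5p met it in no comparison: its log2 folds against nbrKO were -0.43 in Nbr(wt), -0.36 in NbrCTD and -0.47 in NbrCTD-GWp, where the median of the 123 arms tested was -0.38, -0.11 and -0.21. Those of Nbr(wt) and NbrCTD changed sign with the scaling, at 0.16 and 0.0003 by median-of-ratios size factors, while that of NbrCTD-GWp stayed below 0 under each scaling tried, at -0.06 by size factors. In bulk RNA, fewer cells expressing a miRNA and less of it per cell cannot be told apart.

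miR-33-3p, the other strand of the duplex, was far lower with each construct than in nbrKO. It stood at 11497 miRNA RPM in nbrKO, 3379 in Nbr(wt), 4063 in NbrCTD and 3822 in NbrCTD-GWp. The nbrKO library stood alone at the top, and the other libraries lay within a narrow range, though their intervals did not overlap. Read counts were 146939, 66353, 58737 and 65949 in the same order. Against nbrKO the level was 3.402-fold lower in Nbr(wt), 2.83-fold lower in NbrCTD and 3.01-fold lower in NbrCTD-GWp, log2 folds of -1.77, -1.50 and -1.59. All 3 comparisons use the 1 nbrKO library, so they are not separate evidence. The share of all 123 arms called lower was 25.2% in Nbr(wt), 15.4% in NbrCTD and 17.1% in NbrCTD-GWp, and miR-33-3p had the 11th lowest fold in each. Its folds lay -1.38, -1.39 and -1.38 from the median of all arms. Other scalings kept the sign, and the log2 folds then lay between -1.14 and -1.58 in Nbr(wt), between -0.98 and -1.47 in NbrCTD and between -1.18 and -1.34 in NbrCTD-GWp. Under a trimmed mean the value in NbrCTD, -0.98, was no longer called. The background also moved. As scaled here, 31, 19 and 21 of the 123 arms were called lower in Nbr(wt), NbrCTD and NbrCTD-GWp, and 8, 11 and 10 higher. By the authors' RPM it was 21, 16 and 14 lower and 11, 13 and 12 higher. By median of ratios it was 13, 12 and 12 lower and 20, 21 and 18 higher. By trimmed mean it was 13, 10 and 12 lower and 24, 26 and 18 higher. In order of level, miR-33-3p was 16th of 261 arms in nbrKO, 28th in Nbr(wt), 28th in NbrCTD and 27th in NbrCTD-GWp.

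**Figure D1:**
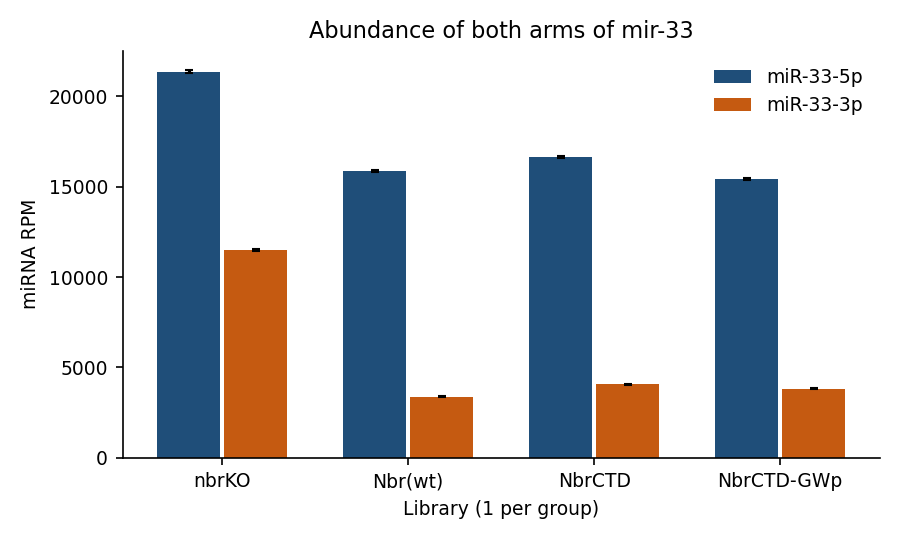
Abundance of miR-33-5p and miR-33-3p in miRNA RPM (bars) in each of the 4 libraries, with exact Poisson 95% intervals of the reads, which are narrow at this scale. The 3p bar drops from 11497 in nbrKO to between 3379 and 4063 with the constructs, while the 5p bar goes from 21365 to between 15416.5 and 16639.9.

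**Figure D2:**
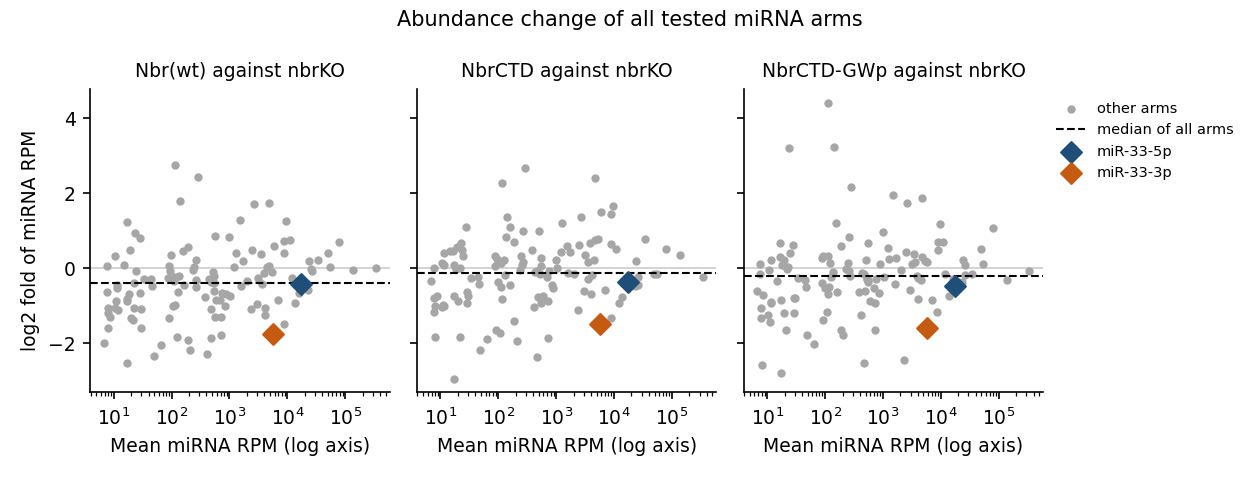
Log2 fold of miRNA RPM against nbrKO (y axis) by mean miRNA RPM on a log axis (x axis) for the 123 arms tested, 1 panel per construct, with the median of all arms dashed. miR-33-5p lies near the median in each panel, and miR-33-3p lies at -1.77, -1.50 and -1.59.

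The balance of the arms needs no scaling, since both are read in the same library. miR-33-3p made up 34.99% (exact Clopper-Pearson 95% interval 34.8 to 35.1) of the reads of both arms in nbrKO, 17.6% (17.4 to 17.7) in Nbr(wt), 19.6% (19.5 to 19.8) in NbrCTD and 19.9% (19.7 to 20.001) in NbrCTD-GWp. The 5p arm thus outnumbered the 3p arm 1.86-fold in nbrKO and 4.69-fold, 4.10-fold and 4.03-fold with the constructs. The authors' own column marked 5p as the main arm in every library. The odds of a read coming from the 3p arm were, relative to nbrKO, 2.53-fold lower in Nbr(wt), 2.20-fold lower in NbrCTD and 2.17-fold lower in NbrCTD-GWp, past the 1.5-fold odds and separate intervals required for a call. A lower share of the minor arm was called in 44.6% of 56 precursors in Nbr(wt), 33.9% in NbrCTD and 30.4% in NbrCTD-GWp, so such a call was common. The minor arm is the arm with fewer reads over all libraries. mir-33 had the 10th lowest log2 odds ratio in Nbr(wt), -1.34 against a median of -0.48, the 9th lowest in NbrCTD, -1.14 against -0.25, and the 7th lowest in NbrCTD-GWp, -1.12 against -0.03. In nbrKO its minor arm held the 9th highest share of the 56, where the median was 8.96%. mir-33 was 1 of 14 precursors called lower against nbrKO in each of these comparisons.

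**Figure D3:**
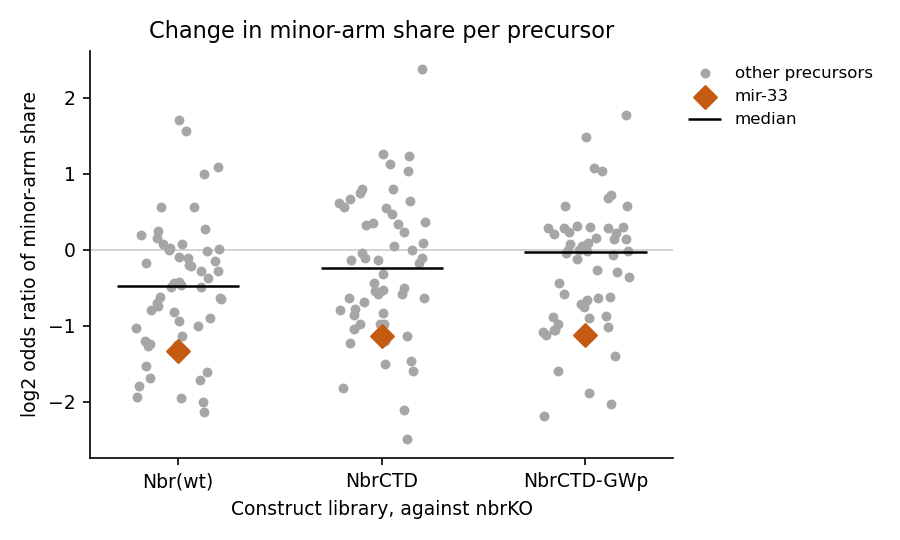
Log2 odds ratio of the minor-arm share against nbrKO (y axis) in each construct's library (x axis), with 1 point for each of 56 precursors, a line at the median and mir-33 as a diamond. The diamond lies at -1.34, -1.14 and -1.12, below the median each time and above the lowest precursors.

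Between the constructs, no difference in the arm balance or abundance of mir-33 was called. The 3p share was higher in NbrCTD and in NbrCTD-GWp than in Nbr(wt), by 2.06 and 2.30 percentage points, and the intervals did not overlap. The odds, 1.15-fold and 1.16-fold higher, did not reach the size for a call. As log2 odds ratios these are 0.196 and 0.218, below the medians of all 56 precursors, 0.271 and 0.272. A higher minor-arm share was called in 21.4% of precursors in NbrCTD and 10.7% in NbrCTD-GWp against Nbr(wt). NbrCTD-GWp and NbrCTD differed by 0.239 percentage points, with overlapping intervals. In abundance neither arm came near 2-fold between any constructs: the log2 folds of miR-33-3p were 0.27 for NbrCTD against Nbr(wt), 0.18 for NbrCTD-GWp against Nbr(wt) and -0.09 for NbrCTD-GWp against NbrCTD. The last of these and that of NbrCTD-GWp against Nbr(wt) changed sign with the scaling.

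Tails were few on both arms. The tailed share is the part of an arm's reads counted as prefix-matching, read as reads with an untemplated 3′ tail. For miR-33-5p it was 1.42% (1.38 to 1.47) in nbrKO, 1.22% (1.18 to 1.26) in Nbr(wt), 1.69% (1.64 to 1.74) in NbrCTD and 1.26% (1.21 to 1.30) in NbrCTD-GWp. NbrCTD was highest and nbrKO second, both apart from the other libraries, and the intervals of Nbr(wt) and NbrCTD-GWp overlapped. For miR-33-3p it was 0.904% (0.857 to 0.954) in nbrKO, 1.02% (0.947 to 1.10) in Nbr(wt), 1.27% (1.18 to 1.36) in NbrCTD and 0.975% (0.901 to 1.05) in NbrCTD-GWp. Here NbrCTD alone stood apart, and the intervals of nbrKO, Nbr(wt) and NbrCTD-GWp overlapped. All of these shares lay below the median of the 114 arms that reached 100 reads in each library, which was 3.01% in nbrKO, 2.05% in Nbr(wt), 2.73% in NbrCTD and 2.25% in NbrCTD-GWp. From the highest, miR-33-5p was 93rd and miR-33-3p 105th of these arms in nbrKO. In that order the shares just above and below them, of miR-1008-5p, miR-12-5p, miR-308-5p and miR-7-3p, had intervals that overlapped theirs.

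No tailed share of mir-33 passed a call that also asked for 1.5-fold odds, which 34.2% of the 114 arms passed as lower against nbrKO in Nbr(wt), 17.5% in NbrCTD and 30.7% in NbrCTD-GWp. Between constructs, 20.2% passed as higher in NbrCTD than in Nbr(wt) and 16.7% as lower in NbrCTD-GWp than in NbrCTD. Against nbrKO and by intervals alone, miR-33-5p was lower in Nbr(wt), as were 48.2% of the 114 arms, and lower in NbrCTD-GWp, as were 44.7%. It was higher in NbrCTD, as were 18.4%, and so was miR-33-3p. The odds of a tail on miR-33-5p were 1.17-fold lower in Nbr(wt), 1.13-fold lower in NbrCTD-GWp and 1.19-fold higher in NbrCTD. On miR-33-3p they were 1.41-fold higher in NbrCTD, the largest of these ratios. The log2 odds ratios of miR-33-5p, -0.22, 0.26 and -0.18 for Nbr(wt), NbrCTD and NbrCTD-GWp, lay above the medians of all arms, -0.53, -0.18 and -0.45, and so did those of miR-33-3p, 0.18, 0.49 and 0.11. Without nbrKO, both arms were higher in NbrCTD than in Nbr(wt) by intervals, 1.39-fold for miR-33-5p and 1.24-fold for miR-33-3p in odds, as were 39.5% of arms. Both were lower in NbrCTD-GWp than in NbrCTD, as were 35.1% of arms.

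**Figure D4:**
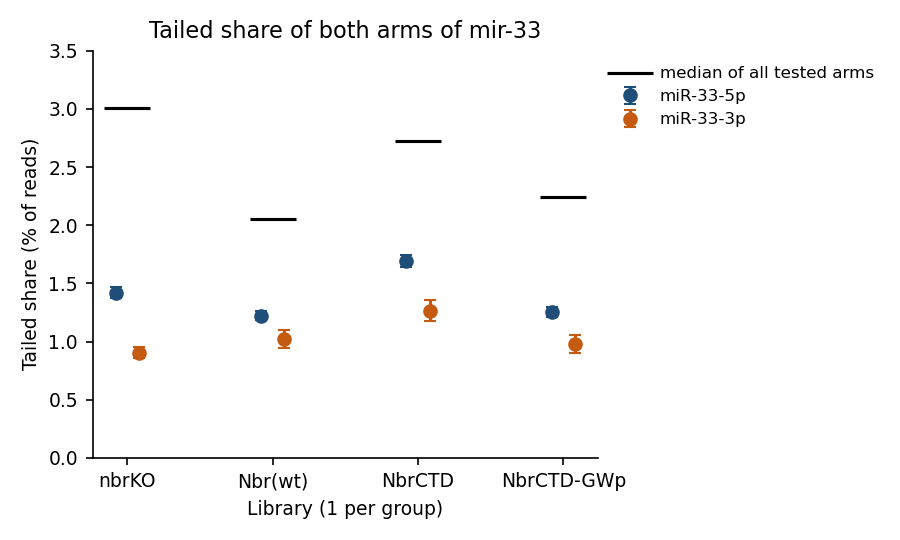
Tailed share in percent of reads (y axis) of miR-33-5p and miR-33-3p in each library (x axis), with exact Clopper-Pearson 95% intervals, and the median of the 114 tested arms as a black line. Both arms lie below the median in each library and are highest in NbrCTD, at 1.69% and 1.27%.

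Scaled to total miRNA reads, the tailed reads of the 3p arm were lower with each construct together with the untailed ones. They stood at 104 miRNA RPM in nbrKO, 34.5 in Nbr(wt), 51.5 in NbrCTD and 37.3 in NbrCTD-GWp. These are 33.2%, 49.5% and 35.8% of the nbrKO level, beside 29.4%, 35.2% and 33.2% for its genome-matching reads.

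The 5′ end of miR-33-5p was the same in nearly all reads of every library. The listed start held 98.7% (98.6 to 98.7) of its reads in nbrKO, and the share in the other libraries differed from that by -0.0007, -0.0267 and -0.0015 percentage points, with overlapping intervals. For miR-33-3p the listed start held 96.3% (96.2 to 96.4) in nbrKO, 93.7% (93.6 to 93.9) in Nbr(wt), 95.03% (94.9 to 95.2) in NbrCTD and 95.5% (95.3 to 95.7) in NbrCTD-GWp. No interval of the 3p arm overlapped another, nbrKO was highest and Nbr(wt) lowest. The difference of -2.54 percentage points in Nbr(wt) passed a limit of 2 points with separate intervals, and 11.9% of 109 arms did so in that direction. The differences in NbrCTD, -1.24, and in NbrCTD-GWp, -0.77, did not reach 2 points. Reads of miR-33-3p with other starts numbered 5697 in nbrKO, 4437 in Nbr(wt), 3071 in NbrCTD and 3106 in NbrCTD-GWp. In miRNA RPM they went from 446 in nbrKO to 226, 212 and 180, which is 50.7%, 47.7% and 40.4% of the nbrKO level, while the listed start went to 29.4%, 35.3% and 33.2%. The positions of the other starts are not listed, so their seeds are not known here.

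**Figure D5:**
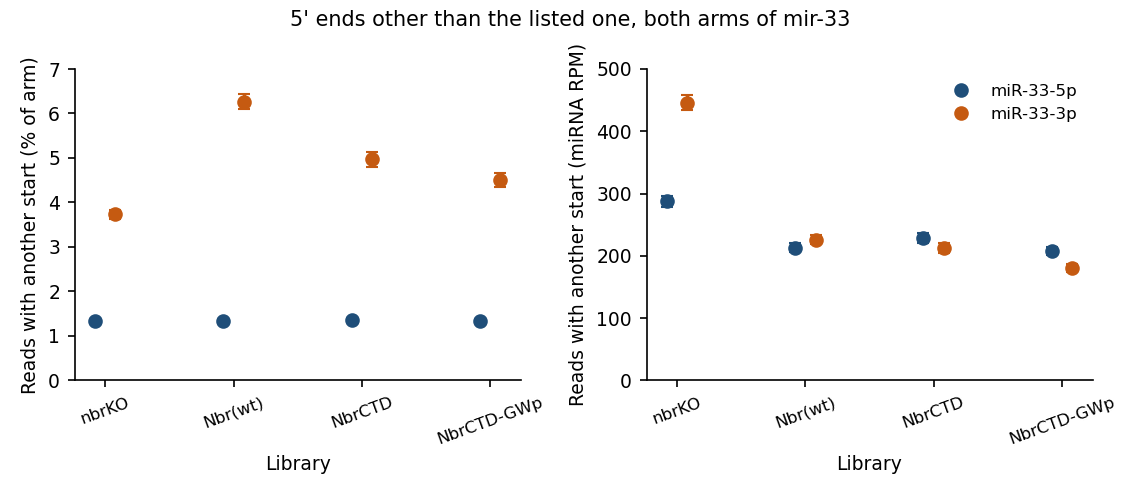
Reads of each mir-33 arm whose 5′ end is not the listed one, as a percent of the arm's reads (left) and in miRNA RPM (right), in each library, with exact 95% intervals. The 5p arm lies between 1.33% and 1.35%, and the 3p arm goes from 3.73% in nbrKO to 6.27%, 4.97% and 4.50% in Nbr(wt), NbrCTD and NbrCTD-GWp.

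Other arms had profiles like these over the 4 libraries, with likeness measured as the Euclidean distance of log2(miRNA RPM + 1) after each arm was centred on its own mean. Nearest to miR-33-5p among 122 other arms were miR-2279-5p at a distance of 0.0438, miR-13a-3p at 0.132, miR-1012-3p at 0.136, miR-1000-5p at 0.154 and miR-190-5p at 0.184. Its own partner miR-33-3p was at 1.05 and ranked 91st. Nearest to miR-33-3p, a list added after its values were seen, were miR-281-3p at 0.192, miR-282-3p at 0.311, miR-1012-5p at 0.341, miR-281-2-5p at 0.354 and bft-5p at 0.433. Like miR-33-3p, miR-282-3p and miR-1012-5p are the arms with fewer reads of their precursors, while bft-5p is the arm with more. The miR-281 arms were not among the 56 precursors compared. miR-282-3p went from 15788 miRNA RPM in nbrKO to 5623 in Nbr(wt), 6302 in NbrCTD and 7060.5 in NbrCTD-GWp. In the same order, miR-1012-5p made up 41.5%, 18.8%, 20.4% and 21.2% of the reads of its precursor. Its partner miR-1012-3p is in the list nearest to miR-33-5p. All these arms were picked for their like abundance profiles. The lower levels of miR-282-3p and miR-1012-5p, and the arm share of miR-1012, are thus not separate results. The share of bft-3p, the partner of bft-5p, rose from 0.75% to 1.59%, 3.83% and 2.56%, on 17 to 32 reads. In log2 odds of a tail, miR-304-3p at 0.1203 and miR-276a-3p at 0.168 were nearest to miR-33-5p among 113 arms. miR-8-5p, miR-279-5p and miR-252-5p followed. By this measure the partner miR-33-3p was closer than in abundance, ranking 9th at 0.293. The share of miR-276a-3p was 0.755% in nbrKO, 0.745% in Nbr(wt), 0.908% in NbrCTD and 0.727% in NbrCTD-GWp. It was picked for its like profile, so its highest value in NbrCTD is not a separate result.

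Of 6 other guide miRNAs linked to fat, insulin or amino acid metabolism in flies, 5 had enough reads, and miR-9a-5p did not. In abundance scaled to total miRNA reads, 1 of the 5, miR-278-3p, was called lower against nbrKO in each comparison. On that scale 25.2%, 15.4% and 17.1% of all arms were called lower in Nbr(wt), NbrCTD and NbrCTD-GWp. None of the 5 was called higher, beside 6.5%, 8.94% and 8.13% of all arms. The median log2 fold of the 5 was -0.05 in Nbr(wt), -0.14 in NbrCTD and -0.32 in NbrCTD-GWp, where all arms had -0.38, -0.11 and -0.21. miR-278-3p, which affects insulin sensitivity, went from 1150.4 miRNA RPM in nbrKO to 314, 223 and 199. In tailed share with 1.5-fold odds, 4 of the 5 were lower in Nbr(wt), 2 in NbrCTD and 3 in NbrCTD-GWp, beside the shares of all arms given above. miR-277-3p, a regulator of branched-chain amino acid breakdown, was the 1 member called in none of these, with 1.70%, 1.32%, 2.05% and 1.23% in nbrKO, Nbr(wt), NbrCTD and NbrCTD-GWp. Like miR-33-5p, it was highest in NbrCTD, while the other measured members of the list were highest in nbrKO. Arms outside the list, such as miR-13b-3p and miR-279-3p, were also highest in NbrCTD, so this trait is not particular to metabolic miRNAs.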

How the data were processed

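Small RNAs of 18 to 30 nt from 25 µg of total RNA were sequenced after 2S rRNA depletion with adapters ending in 4 random bases, per the labels' protocols. Per the submitters' processing notes, the tools included HTSeq 0.9.1 and cutadapt 1.2.1; their roles, the aligner, the counting rule and the build are not stated in the sources used here. The authors deposited 1 table of the series with 2 RPM columns per library, headed GM and PM per the file headers. These are not spelled out and were read as genome-matching and prefix-matching (tailed) reads. A deposited fraction is the part of all reads of an arm that start at the listed 5′ end; GM plus PM reads divided by it gave a whole number, within 0.01, for 72 of 73 arms checked. Other columns give a type label, not used, and the arm mark, per the file headers.

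Dividing by the RPM step, the worth of 1 read, gave whole reads within 0.01 for 94.4% to 95.7% of values above 0; because of the others no count model was fitted. The 270 rows given in every library were joined into 261 arms by summing loci of the same name and start; miR-276a-5p stands for the identical miR-276b-5p. Tailed shares were compared for 114 arms (at least 100 reads in every library), abundance for 123 (mean of at least 100 reads), arm balance for 56 precursors (at least 100 reads per arm over all libraries) and start shares for the 109 of the 114 arms with 1 locus. Intervals are exact Clopper-Pearson for shares and exact Poisson for levels, at 95%. Odds had 0.5 reads added to both kinds. Intervals cover counting error only. PCR duplicates are not known to have been removed, and if they remain the intervals are too narrow even for that error. No p-value was computed, each group being 1 library.

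Named miRNAs are both mir-33 arms, their neighbours in rank in nbrKO, the 5 arms nearest to miR-33-5p in abundance and in tailed share, the 5 nearest to miR-33-3p in abundance (added after its values were seen), and a metabolic list from background knowledge; markers of other cells were recalled likewise. The members and lists were chosen with earlier results of these data known. Mature sequences beyond the listed bases were not used here. The tailed-share and abundance calls were checked on data simulated with counting error alone. That check cannot speak to variation between libraries, and the arm-share and start-share calls were not simulated. Python 3.11.15, pandas 2.3.3, NumPy 2.4.6, SciPy 1.17.1 and matplotlib 3.10.9 were used. Alternatives were other scalings, pseudocounts, filters and call rules, genome-matching reads alone, and all starts of an arm.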

Additional observations from a re-analysis of the deposited data

How the results depend on the processing

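Log2 folds of abundance against nbrKO moved with the scaling, because scalings other than total miRNA reads shift the median of all 123 arms by up to 0.61. For miR-33-5p in Nbr(wt), NbrCTD and NbrCTD-GWp they were -0.25, -0.33 and -0.22 by the authors' RPM, 0.16, 0.0003 and -0.0642 by median-of-ratios size factors, and 0.19, 0.16 and -0.0592 by a trimmed mean of log ratios. For miR-33-3p they were -1.58, -1.47 and -1.34 by the authors' RPM, -1.18, -1.14 and -1.18 by median of ratios, and -1.14, -0.98 and -1.18 by trimmed mean, and the call in NbrCTD was lost at -0.98. Between constructs (NbrCTD against Nbr(wt), NbrCTD-GWp against NbrCTD, NbrCTD-GWp against Nbr(wt)), miR-33-5p had -0.0783, 0.10 and 0.0235 by the authors' RPM, -0.16, -0.0645 and -0.22 by median of ratios, and -0.0349, -0.22 and -0.25 by trimmed mean. miR-33-3p had 0.12, 0.12 and 0.24, then 0.0374, -0.0428 and -0.0054, then 0.16, -0.20 and -0.035.

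With all starts of each arm counted, the log2 odds ratios of the arm share were -1.30, -1.12 and -1.11 against nbrKO for Nbr(wt), NbrCTD and NbrCTD-GWp, and 0.18 and 0.19 against Nbr(wt) for NbrCTD and NbrCTD-GWp; every call against nbrKO held. Calls of tailed share by intervals alone added miR-33-5p in Nbr(wt) (-0.22), NbrCTD (0.26) and NbrCTD-GWp (-0.18) against nbrKO, and miR-33-3p in NbrCTD (0.49). They also added NbrCTD against Nbr(wt) (0.48 for 5p, 0.31 for 3p) and NbrCTD-GWp against NbrCTD (-0.44 and -0.38). Calls of the start share of miR-33-3p by intervals alone added -1.24 and -0.77 percentage points against nbrKO in NbrCTD and NbrCTD-GWp, 1.30 for NbrCTD and 1.77 for NbrCTD-GWp against Nbr(wt), and 0.47 for NbrCTD-GWp against NbrCTD. Without a filter on low values, 49 of all 261 arms were called lower in abundance in Nbr(wt), 34 in NbrCTD and 35 in NbrCTD-GWp. With the filter it was 31, 19 and 21 of 123 arms, so the larger counts come from a larger set.

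Pseudocounts of 0.1 and 10, calls at 1.5-fold and genome-matching reads alone changed no abundance call of mir-33, calls at 2-fold odds changed none of its tailed share, and genome-matching reads alone changed none of its arm share. Other read minimums for tailed share, 20 and 1000, were applied to the counts of arms called, which stayed within 1.5 times. The call rule for start share, the all-starts alternative, the comparison of arm share between constructs and every alternative run between constructs (abundance, tailed share, arm share, start share) were chosen after seeing the data. Summing all listed starts for tailed share, and recomputing the start share from listed reads, were not run, since 1 start is listed per arm. No paired analysis was possible because each group holds 1 library. Depth does not limit either arm; the lack of replicates does.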
